A study of Mus musculus with 15 samples.

Results

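The 10 genes described here are genes by which macrophages are recognised in mouse tissue, among them the 3 genes that encode the chains of complement component C1q. They were taken by symbol from a list (Csf1r, Adgre1, Cd68, Cd163, Mrc1, C1qa, C1qb, C1qc, Lyz2 and Mpeg1), and each symbol matched 1 of the 55450 counted genes. All 10 passed the filter on low counts, as did 16920 genes in all. RNA was sequenced from the gastrocnemius, a hindlimb muscle, of 15 female C57BL/6JN mice older than 17 months, and every library is 1 mouse. Low mice (labelled robust) had at most 1 positive frailty marker and High mice (labelled frail) had at least 2, a split made after the tissue was collected. Run mice completed 2 bouts of downhill treadmill running at 13 m/min on a 22 degree decline and were sampled 24 h later, and Control mice stayed sedentary in their cages. Sedentary groups were of 4 Low and 3 High mice (Low Control, High Control), and 4 mice of each frailty group ran (Low Run, High Run).

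Macrophages are phagocytes that live in the connective tissue between muscle fibres, where they clear debris, and more of them arrive as monocytes from blood when fibres are damaged. The receptor encoded by Csf1r binds the growth factors CSF1 and IL-34, on which most macrophages depend. Adgre1 encodes the surface protein F4/80 and Cd68 a glycoprotein of lysosomes. Cd163, the scavenger receptor for haemoglobin bound to haptoglobin, and Mrc1, the mannose receptor CD206, are known from macrophages that reside in tissue. C1qa, C1qb and C1qc encode the A, B and C chains that assemble into C1q, the molecule that starts the classical complement pathway and also tags dying cells and debris for uptake, and macrophages are a main source of it. Lyz2 encodes a lysozyme that cleaves bacterial cell walls and is also abundant in neutrophils, and Mpeg1 encodes perforin-2, a pore-forming protein of phagocytes. In bulk RNA of a whole muscle, fewer cells of a type and less RNA per cell cannot be told apart.

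On mouse build GRCm38 (mm10), C1qb (chr4:136880129-136886187), C1qc (chr4:136889804-136893065) and C1qa (chr4:136895917-136898803) lie in a row on the minus strand, within 18675 bases. Gaps of 3616 and 2851 bases separate them. Cd163 and Mpeg1 lie on chromosomes 6 and 19. RefSeq promoters were at hand for 7 of the 10 genes, and not for Adgre1, Csf1r and C1qa. The 250 bases before the start site are shown for C1qb and C1qc, neighbouring genes whose levels were closely correlated, for Mpeg1, which had the largest difference after running, and for Cd163, which had a difference of the opposite sign in Low mice. Capitals mark GAGGAA, the core of the site that the myeloid factor PU.1 binds, or its reverse complement TTCCTC, and sequences run 5′ to 3′ along the gene's strand.
C1qb, chr4:136886201-136886450, minus strand: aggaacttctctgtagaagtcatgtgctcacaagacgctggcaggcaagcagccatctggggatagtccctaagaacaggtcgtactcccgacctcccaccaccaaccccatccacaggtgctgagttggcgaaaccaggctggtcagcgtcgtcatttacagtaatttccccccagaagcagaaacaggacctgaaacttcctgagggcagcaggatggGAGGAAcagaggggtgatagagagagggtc
C1qc, chr4:136892915-136893164, minus strand: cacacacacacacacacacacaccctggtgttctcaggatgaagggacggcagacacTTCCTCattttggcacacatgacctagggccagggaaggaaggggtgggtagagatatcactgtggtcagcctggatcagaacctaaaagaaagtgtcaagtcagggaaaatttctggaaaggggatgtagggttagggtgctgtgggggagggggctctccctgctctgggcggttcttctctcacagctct
Mpeg1, chr19:12460520-12460769, plus strand: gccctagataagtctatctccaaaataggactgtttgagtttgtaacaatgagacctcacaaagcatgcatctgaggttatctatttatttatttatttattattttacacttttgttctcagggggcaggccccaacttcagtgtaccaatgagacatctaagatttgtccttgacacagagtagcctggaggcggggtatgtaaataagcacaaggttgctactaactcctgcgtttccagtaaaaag
Cd163, chr6:124304401-124304650, plus strand: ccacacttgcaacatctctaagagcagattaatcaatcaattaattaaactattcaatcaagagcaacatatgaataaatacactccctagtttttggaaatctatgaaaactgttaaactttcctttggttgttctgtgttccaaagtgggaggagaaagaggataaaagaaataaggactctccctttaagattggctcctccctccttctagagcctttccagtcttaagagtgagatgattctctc
The C1qb promoter held the motif 30 bases before the RefSeq start site, and that of C1qc held its reverse complement 193 bases before its own. The C1qc window reaches past base 136893065, the upstream end of the gene as placed above, so part of the window lies within that gene. The other windows shown lie outside their genes. The windows of Mpeg1 and Cd163 held neither. The motif was also present in the same window of Cd68 and Mrc1, so that 4 of the 7 promoters had it, against 23.3% of the 32851 promoters in the table. The letters TGCTGAC of the Maf site was in 0 of the 7 and in 3.81% of all promoters, and the TATA box letters TATAAA were in 0 of the 7 and in 12.4%. All motifs were sought on both strands, and since only GAGGAA was found in the members' windows no matches of different motifs overlapped. A match of letters is not evidence of binding.

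Total counts per mouse ran from 19395125 to 30699216 and overlapped between all groups. Principal components were taken from the deposited variance-stabilized values, not filtered to the tested genes. Mice D9 (Low Control) and D62 (High Run) lay apart on the first component, and mice D53 (High Run), D57 and D68 (both Low Run) on the second. Results that rest on them are therefore also given without them. All 8 markers of skeletal muscle fibres were detected in every group, with a summed level between 111264 and 173617 CPM (counts scaled to a common library size) per mouse.

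On GRCm38, Cd163 lies at chr6:124304656-124330527 and Mpeg1 at chr19:12460779-12465283 on the plus strand, Mrc1 at chr2:14229392-14332057 and Adgre1 at chr17:57358691-57483527 on the plus strand, Cd68 at chr11:69664213-69666153 and Lyz2 at chr10:117277331-117282321 on the minus strand, and Csf1r at chr18:61100598-61132149 on the plus strand. Counts are of reads over all exons of a gene, untranslated regions included.

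The most abundant of the 10 genes was Lyz2. Levels between genes were compared as CPM, scaled by the trimmed mean of M-values (TMM), per kilobase of exon. Over 15 mice the level per kilobase was 56.6 ± 18.4 (SD) for Lyz2, 19.4 ± 6.83 for C1qa, 17.2 ± 6.46 for C1qb and 10.1 ± 3.51 for C1qc. It was 5.52 ± 1.87 for Cd68 and 3.66 ± 0.973 for Csf1r, and below these stood Cd163 at 2.87 ± 0.896, Mrc1 at 2.60 ± 1.01, Mpeg1 at 2.30 ± 0.994 and Adgre1 at 1.58 ± 0.702. Lyz2 exceeded C1qa in 15 of 15 mice, C1qb exceeded C1qc in 15 of 15, C1qc exceeded Cd68 in 15 of 15 and Cd68 exceeded Csf1r in 15 of 15. The order of C1qb and C1qc came from the exonic lengths used, 1088 and 1931 bases, as their mean CPM was 18.7 and 19.5. Likewise, Cd68 and Csf1r had lengths of 1257 and 5774 bases and a mean CPM of 6.94 and 21.1. C1qa exceeded C1qb in 13 of 15 and Mpeg1 exceeded Adgre1 in 13 of 15, whereas Csf1r exceeded Cd163 in 11, Cd163 exceeded Mrc1 in 9 and Mrc1 exceeded Mpeg1 in 9, so the order of the last 3 pairs changed from mouse to mouse. The 3 C1q genes thus stood well above the surface receptors per unit of length. Not scaled by length, their means were 18.7 to 20.2 CPM, against 21.1 CPM for Csf1r. Within a gene, the highest mouse exceeded the lowest by 2.63-fold for Csf1r to 5.14-fold for Adgre1. Lyz1, a near-identical copy of Lyz2 with which reads can be confused, had 33 to 154 counts per mouse against 1015 to 3360 for Lyz2.

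**Figure D1:**
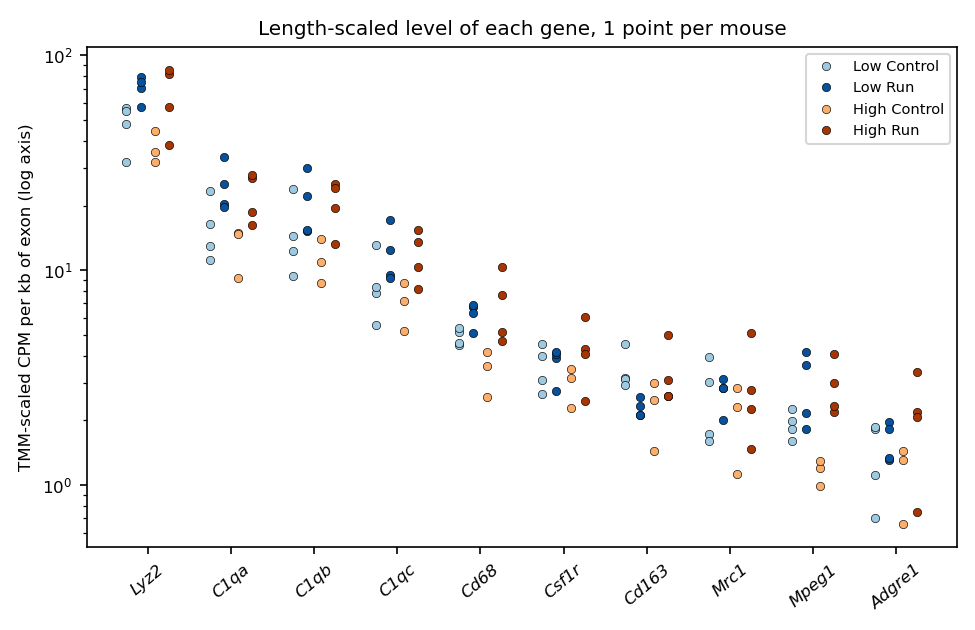
Level of the 10 genes as TMM-scaled CPM per kilobase of exon on a log axis, 1 point per mouse coloured by group, ordered by the mean over 15 mice. Lyz2 (mean 56.6) and the 3 C1q genes (10.1 to 19.4) stand above Cd68 (5.52) and the remaining genes, of which Adgre1 (1.58) is lowest.

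In High mice, all 10 genes were higher in the Run group than in the Control group, with Mpeg1, Cd68, Adgre1 and C1qb differing most. The log2 fold changes ran from 0.48 for Mrc1 to 1.31 for Mpeg1, with a median of 0.81, where the median over all tested genes was 0.05 and 57.2% of genes were above 0. The quasi-likelihood test of edgeR called 0 members and 0% of genes at an FDR of 0.1 (adjusted p from 0.956 to 0.958). At an unadjusted p under 0.05, edgeR had 6 of the 10 members higher (Mpeg1, Cd68, Lyz2, C1qa, C1qb and C1qc), against 3.28% of all genes tested. DESeq2 called 1 member, Mpeg1, and 0.0934% of the genes it adjusted. All 10 members were also higher without mice D9 and D62 (median 0.96) and without D53, D57 and D68 (median 0.68). The 5 erythroid markers counted below were higher in High Run mice as well, and their part in these values was not tested.

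Mpeg1 was at 5.21, 4.28 and 5.60 CPM in the High Control mice D23, D25 and D67. It was at 17.6, 12.9, 9.47 and 10.1 CPM in the High Run mice D49, D52, D53 and D62. Every High Run mouse lay above every High Control mouse. The log2 fold change was 1.31 ± 0.29 (SE), a 2.48-fold difference, with an adjusted p of 0.956 by edgeR and 0.0320 by DESeq2. It was 1.40 without mice D9 and D62, 1.42 without D53, D57 and D68, and 1.10 without D49, the highest High Run mouse. The study names Mpeg1 among the genes it called from these mice, so its call here is not independent evidence. The study describes that call as unique to the High group. In Low mice the log2 fold change of Mpeg1 was 0.62 ± 0.25, and its Frailty × Run interaction was not called (edgeR adjusted p 0.600).

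Cd68 was at 3.24, 5.21 and 4.50 CPM in the High Control mice and at 13.0, 6.47, 9.67 and 5.86 CPM in the High Run mice, in the same order of mice. The lowest High Run mouse, D62, was still above the highest High Control mouse. The log2 fold change was 1.01 ± 0.26 (edgeR adjusted p 0.956, DESeq2 0.174). C1qa, too, did not overlap, at 9.62, 15.4 and 15.3 CPM without running and at 27.9, 19.3, 28.8 and 16.9 CPM after it. The C1qa log2 fold change was 0.79 ± 0.28 (edgeR adjusted p 0.956, DESeq2 0.616). These 3 members were the ones without overlap in this comparison, 3 of 10 against 3.47% of all tested genes.

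The other chains of C1q followed C1qa in the High groups. The mean of C1qb was 12.2 ± 2.87 CPM (SD, n = 3) in sedentary and 22.3 ± 5.93 CPM (n = 4) in run High mice, and C1qc had 13.6 ± 3.37 and 22.9 ± 6.24. Their log2 fold changes were 0.87 ± 0.32 and 0.75 ± 0.30 (SE), and in both genes mouse D62 fell within the Control range. Lyz2 was at 41.9, 46.5 and 58.4 CPM in High Control mice and at 108, 75.8, 113 and 50.5 CPM in High Run mice, a log2 fold change of 0.83 ± 0.26. Only D62 fell within the Control range for Lyz2, and the edgeR adjusted p of these 3 genes was 0.956.

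The High groups overlapped for the surface receptors. Adgre1 ranged from 2.12 to 4.64 CPM in High Control mice and from 2.43 to 10.9 in High Run mice, Csf1r from 13.2 to 20.1 and from 14.2 to 34.8, and Mrc1 from 7.18 to 18.0 and from 9.39 to 32.5. The ranges overlapped in all 3 genes, with D23 lowest among the Controls, D49 highest and D62 lowest among the Run mice. The log2 fold changes were 0.88 ± 0.43 for Adgre1, 0.50 ± 0.27 for Csf1r and 0.48 ± 0.40 for Mrc1, and without D49 they were 0.55, 0.27 and 0.05 in turn. Mrc1 was at 0.18 without D23 and at 0.75 without D67. Over all members, the median was 0.60 without D23 and 0.64 without D49, and all 10 genes stayed higher with any 1 mouse left out.

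**Figure D2:**
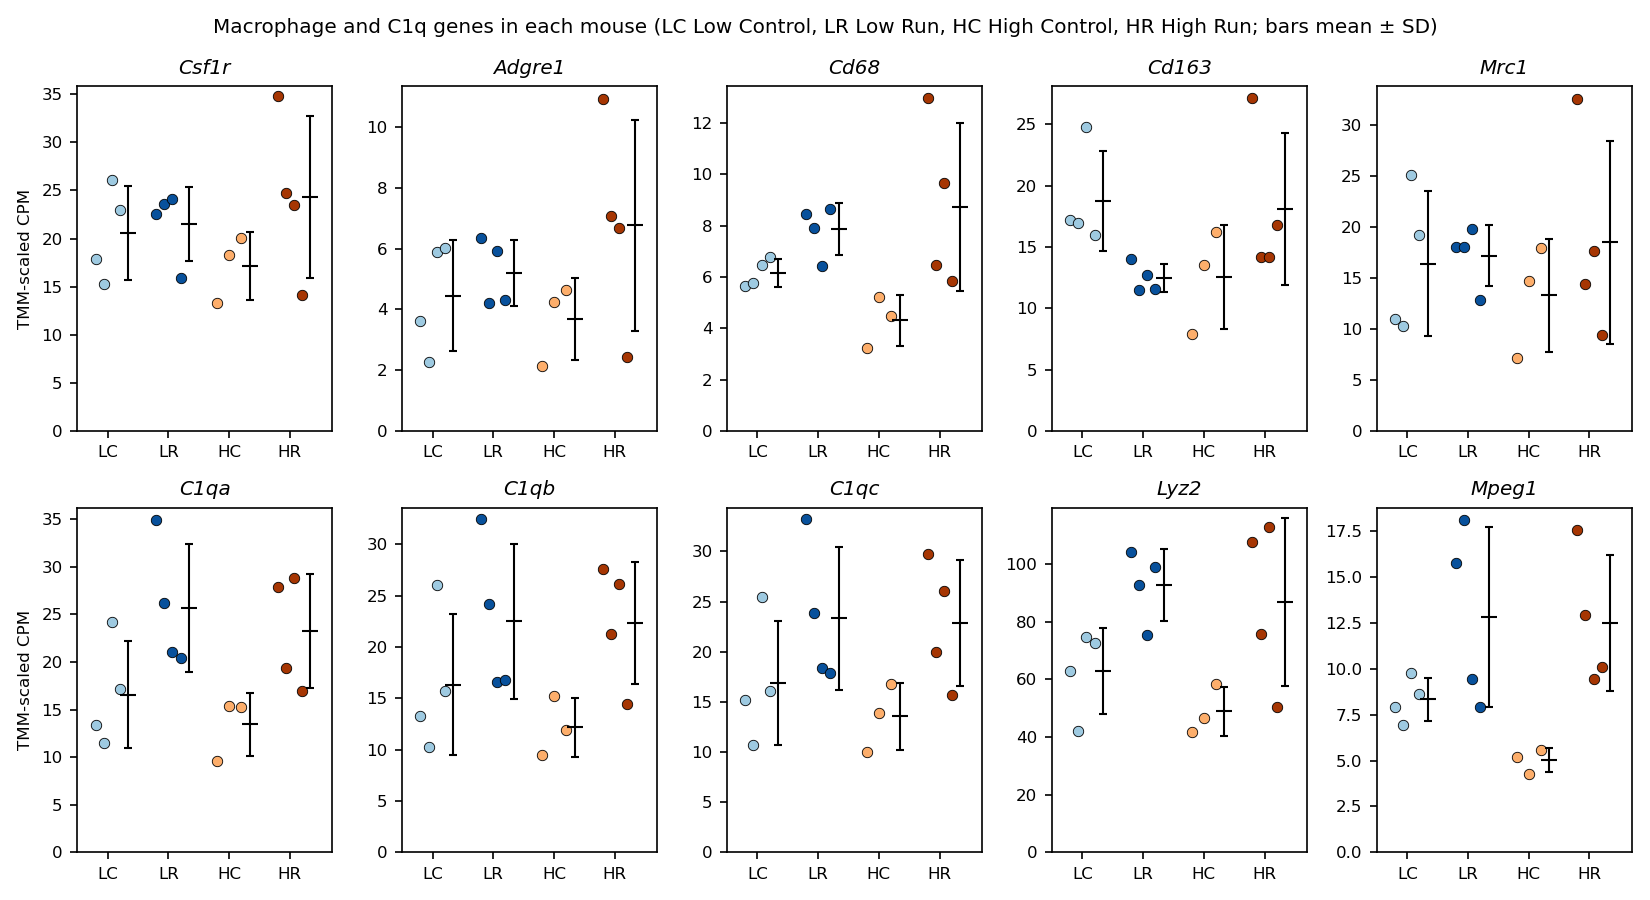
TMM-scaled CPM of the 10 genes in each mouse (points), with the mean and SD of each group (bars). Mpeg1, Cd68 and C1qa show no overlap between High Control and High Run mice, and the Low Run mice lie below all Low Control mice for Cd163.

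In Low mice, 9 of the 10 genes were higher after running and Cd163 was lower. The median log2 fold change of the members was 0.41, against 0.02 over all tested genes, of which 51.9% were above 0. edgeR called 0 members and 0% of genes (adjusted p from 0.358 to 0.946), and DESeq2 called 0 members and 0.0374% of genes. At an unadjusted p under 0.05, edgeR had 3 members higher (C1qa, Mpeg1 and Lyz2), where 5.92% of all genes passed in that direction, and 1 member lower (Cd163), where 7.52% did. The members' log2 fold changes were shifted upward by C1q, Lyz2 and Mpeg1, while Csf1r and Mrc1 were near 0. Without D9 and D62, 6 of the 10 were higher (median 0.29), and without D53, D57 and D68 there were 9 (median 0.27). The median was 0.24 without D57. Lymphocyte markers, given at the end, were also higher in Low Run mice. Neutrophil markers had higher fold changes too, but their summed level lay above the Low Control range in D68 alone. The part of both marker lists in these values was not tested.

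C1qa was at 13.4, 11.5, 24.2 and 17.1 CPM in the Low Control mice D8, D9, D11 and D98, and at 35.0, 26.2, 21.1 and 20.5 CPM in the Low Run mice D57, D61, D66 and D68. Only D11 reached into the Low Run range. The log2 fold change was 0.63 ± 0.26 (edgeR adjusted p 0.358), and those of C1qb and C1qc were 0.46 ± 0.29 and 0.47 ± 0.28. Without D57 the values of C1qb and C1qc were 0.23 and 0.25, without D9 0.28 and 0.29, and without D11 0.77 and 0.73. Lyz2 was at 62.8, 42.0, 74.7 and 72.5 CPM in Low Control mice and at 104, 92.8, 75.3 and 98.9 CPM in Low Run mice, which did not overlap. Lyz2 was the 1 member without overlap in the higher direction, where 3.35% of all genes had none, and its log2 fold change was 0.56 ± 0.23 (edgeR adjusted p 0.358).

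Mpeg1 split the Low Run mice. It was at 7.94, 6.95, 9.77 and 8.65 CPM in Low Control mice and at 15.8, 18.1, 9.42 and 7.92 CPM in Low Run mice. D57 and D61 lay far above every Control, and D66 and D68 lay among them. Its log2 fold change was 0.62 ± 0.25, and 0.40 without D61. Cd68 ranged from 5.64 to 6.79 CPM in Low Control and from 6.44 to 8.67 CPM in Low Run mice, with a log2 fold change of 0.35 ± 0.23.

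Csf1r, Mrc1 and Adgre1 did not separate the Low groups. Csf1r had a mean of 20.5 ± 4.88 CPM (SD, n = 4) in Low Control and 21.5 ± 3.81 (n = 4) in Low Run mice, and Mrc1 had 16.4 ± 7.08 and 17.2 ± 3.00. Adgre1 had 4.45 ± 1.82 and 5.20 ± 1.10. The log2 fold changes were 0.07 ± 0.24, 0.07 ± 0.37 and 0.23 ± 0.39, and they were -0.0589, -0.11 and -0.0020 in turn without D9, the Low Control mouse in which 8 of the 10 members were lowest.

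Cd163 was the exception in Low mice. It was at 17.2, 17.0, 24.8 and 16.0 CPM in Low Control mice D8, D9, D11 and D98 and at 14.0, 11.5, 12.7 and 11.6 CPM in Low Run mice D57, D61, D66 and D68. Every Low Run mouse lay below every Low Control mouse, which held for 1 of 10 members and 3.59% of all genes. The log2 fold change was -0.59 ± 0.24 (edgeR adjusted p 0.358, DESeq2 0.417), and -0.43 without D11. In High mice the sign was the opposite, at 7.88, 13.6 and 16.2 CPM in Control mice and 27.2, 14.2, 14.2 and 16.8 CPM in Run mice, with overlap and a log2 fold change of 0.53 ± 0.26 (0.26 without D49 and 0.28 without D23).

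**Figure D3:**
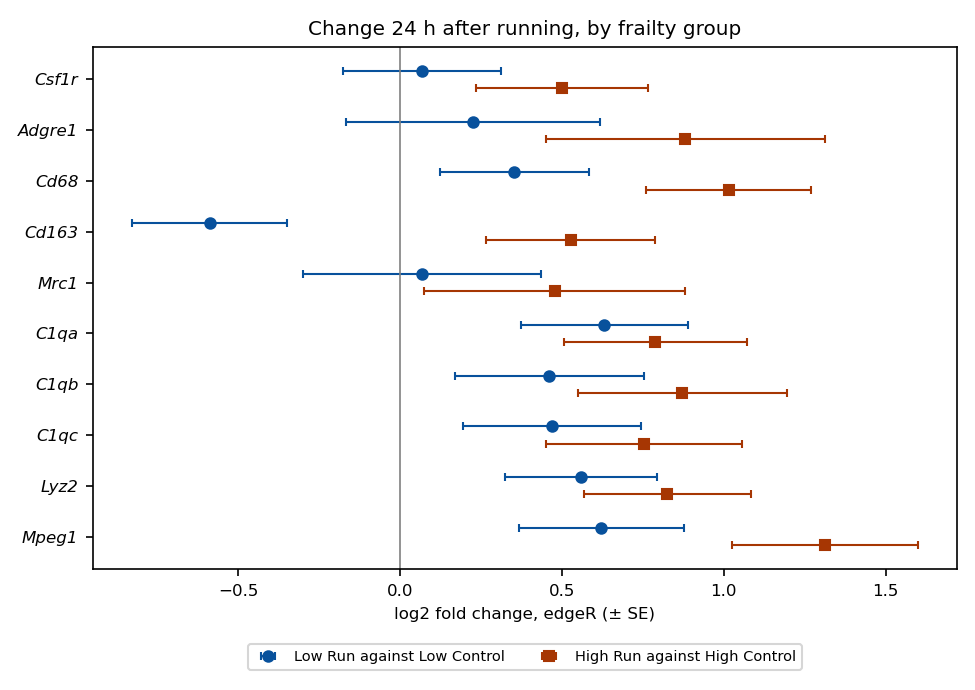
Log2 fold change of each gene after running in Low mice (circles) and High mice (squares) from edgeR, with bars for 1 SE. All 10 squares lie above 0, from 0.48 to 1.31, and Cd163 in Low mice (-0.59) is the point clearly below 0.

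The Frailty × Run interaction asks whether the difference after running was larger in High than in Low mice. The interaction term was above 0 for all 10 genes, with a median log2 value of 0.42, where 53.1% of all genes were above 0 and their median was 0.03. It was largest for Cd163 (1.11 ± 0.35), followed by Mpeg1 (0.69 ± 0.38), Cd68 (0.66 ± 0.34) and Adgre1 (0.66 ± 0.58), and smallest for C1qa (0.16 ± 0.38). edgeR called 0 members and 0% of genes (adjusted p from 0.600 to 0.897), as did DESeq2 (0 members, 0% of genes, adjusted p from 0.980 to 0.996). At an unadjusted p under 0.05, edgeR had 1 member, Cd163, against 5.24% of genes in that direction. All 10 terms were above 0 without D9 and D62 (median 0.77) and without D53, D57 and D68 (median 0.41). The median was 0.24 without D11, 0.27 without D23 and 0.25 without D49, with 9 of 10 terms above 0 in each case. Without D49 the terms of Adgre1 and Cd68 were 0.33 and 0.41. For Cd163 the term was 1.20 without D9 and D62 and 1.25 without D53, D57 and D68. For C1qa it was -0.0793 without D11 and -0.0364 without D23.

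Averaged over both frailty groups, running went with higher levels of 9 of the 10 genes (53.4% of all genes), with a median log2 fold change of 0.64 against 0.02 for all genes. edgeR called 0 members and 0% of genes (adjusted p from 0.413 to 0.970), with 6 members higher at an unadjusted p under 0.05 against 5.6% of genes. DESeq2 called 4 members, against 0.529% of the genes it adjusted. These were Mpeg1 (edgeR log2 fold change 0.97 ± 0.19, DESeq2 adjusted p 0.00903), Lyz2 (0.69 ± 0.17, 0.0707), Cd68 (0.68 ± 0.17, 0.0753) and C1qa (0.71 ± 0.19, 0.0940). C1qb (0.67 ± 0.22) and C1qc (0.61 ± 0.20) had DESeq2 adjusted p of 0.236 and 0.269. Cd163, whose signs opposed each other in the 2 frailty groups, averaged -0.03 ± 0.18. The members' median was 0.62 without D9 and D62 (9 higher) and 0.54 without D53, D57 and D68 (10 higher).

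Between sedentary mice, all 10 genes were lower in High Control than in Low Control mice, that is 0 of 10 above 0 where 47.2% of all genes were. This comparison shares its control mice with those above, so the values stand side by side and do not support each other. The median log2 fold change was -0.34, against -0.02 for all genes, and ran from -0.73 ± 0.28 for Mpeg1 to -0.26 ± 0.26 for Csf1r. edgeR called 0 members and 0% of genes (adjusted p from 0.704 to 0.858), and DESeq2 called 0 members and 0% of genes (adjusted p of 1). At an unadjusted p under 0.05, edgeR had 2 members lower (Mpeg1 and Cd163, -0.58 ± 0.26), against 4.06% of genes. Mpeg1 and Cd68 did not overlap, 2 of 10 against 5.27% of genes, and the highest High Control level of Mpeg1 (5.60 CPM) was below the lowest Low Control level (6.95 CPM). The median was -0.51 without D9 and D62 and -0.34 without D53, D57 and D68, again with 0 genes above 0. It was -0.13 without D11 and -0.20 without D23. Without D23, Adgre1 was at -0.0013, Mrc1 at -0.0060 and Cd163 at -0.33, and without D11 the 3 C1q genes were between -0.11 and -0.0524. D23, a High Control mouse, had the lowest level of 9 of the 10 members among all 15 mice.

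Between the run groups, 5 of the 10 genes were higher in High Run mice (52.2% of all genes), and the median log2 fold change of the members was 0.05 (0.01 for all genes). edgeR called 0 members and 0% of genes (adjusted p 0.999), and DESeq2 called 0 members and 0% of genes. Cd163 was the 1 member higher at an unadjusted p under 0.05 by edgeR, against 1.52% of genes, with a log2 fold change of 0.54 ± 0.24, and 0.27 without D49. It was also the 1 member without overlap, against 0.721% of genes, with all High Run mice at 14.2 CPM or more and all Low Run mice at 14.0 CPM or less. The number of genes higher in High Run mice was 2 without D49, 9 without D62 and 9 without D57. It was 9 without D9 and D62 together (median 0.22) and 6 without D53, D57 and D68 (median 0.04).

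Ratios within a mouse are not affected by anything that scales all 10 genes together. The ratio of C1qb to C1qa counts stayed between 0.775 and 1.10 in the 15 mice and that of C1qc to C1qa between 0.870 and 1.13. The ratio of Cd163 to C1qa was far less steady. It ranged from 0.932 to 1.47 in Low Control mice and from 0.400 to 0.605 in Low Run mice, with no overlap, and from 0.819 to 1.06 in High Control mice and from 0.492 to 0.993 in High Run mice, with overlap. The ratio of C1qa to Csf1r ranged from 0.726 to 0.929 in the 7 Control mice and from 0.783 to 1.55 in the 8 Run mice. The ratio of Mrc1 to Csf1r had similar means in the 4 groups, from 0.733 ± 0.151 in High Run to 0.798 ± 0.024 in Low Run mice. These ratios were formed after the values had been seen and were not tested.

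**Figure D4:**
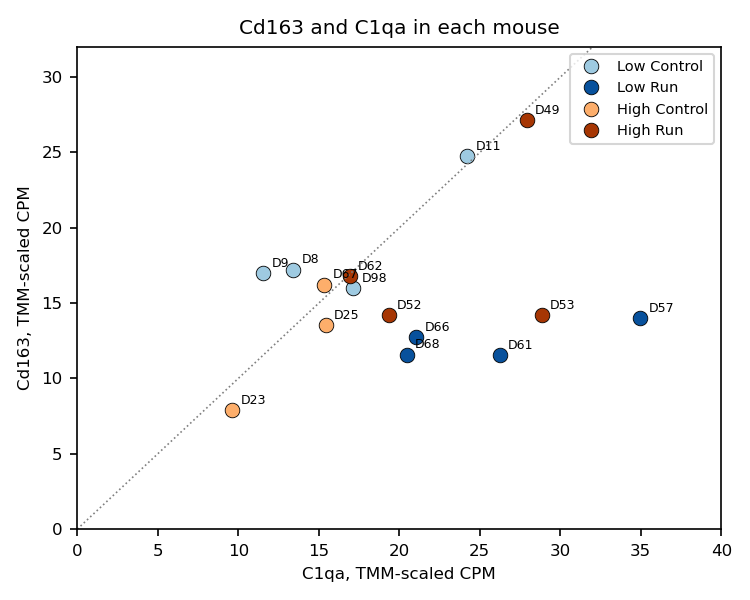
Cd163 against C1qa in each mouse, both as TMM-scaled CPM, coloured by group, with a dotted line where the 2 are equal. The 4 Low Run mice lie below the line at ratios from 0.400 to 0.605, and the Low Control mice lie near or above it at ratios from 0.932 to 1.47.

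Across the 15 mice the levels of the members were correlated, least so for Cd163. Of the 45 pairs, Pearson's r of log2 CPM had a median of 0.76 and ran from 0.21 to 0.97, and 37 pairs had a Benjamini-Hochberg adjusted permutation p under 0.05 (33 pairs by Spearman's rho). The C1q chains were closest, with r of 0.97 for C1qa with C1qc, 0.96 for C1qb with C1qc and 0.96 for C1qa with C1qb (rho 0.95, 0.95 and 0.97). The permutation p of each was 1e-05 for r and for rho, the smallest that 100000 resamples can give, and the adjusted p was 6.43e-05 for r and 9.00e-05 for rho. Without the 2 mice farthest from the median of the first gene, r was 0.95, 0.94 and 0.94. Csf1r correlated with Mrc1 at r = 0.94 (rho 0.86, permutation p 1e-05 and 8e-05, adjusted 6.43e-05 and 0.000360) and with Adgre1 at r = 0.93 (rho 0.81, permutation p 1e-05 and 0.00046, adjusted 6.43e-05 and 0.00172), and r was 0.90 for Csf1r with Mrc1 and 0.88 for Adgre1 with Csf1r without the 2 farthest mice.

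Cd163 stood apart, with a median r of 0.42 to the other 9 genes. Its lowest r was with Lyz2, at 0.21 (rho -0.0036, permutation p 0.459 and 0.994, adjusted 0.459 and 0.995), and its highest with Mrc1, at 0.61 (rho 0.23, permutation p 0.0155 and 0.412, adjusted 0.0199 and 0.488). Without the 2 mice farthest from the median of Cd163, its r with Mrc1 was 0.10. The lowest r of any pair without the 2 farthest mice of its first gene was -0.41, for Cd68 with Cd163. On deviations from the group means, the median r of all pairs was 0.72, and 37 pairs passed by r and 32 by rho. The members thus also varied together among mice of the same group. The permutation moved deviations freely between groups and did not allow for the means taken out, so these p values may be too small. Cd163 stood less far apart there by r, which ran from 0.37 with Lyz2 to 0.76 with Mrc1 (rho 0.65, permutation p 0.00084 and 0.0104, adjusted 0.00252 and 0.0191). By rho, only the pairs of Cd163 with Mrc1 and with C1qc passed (adjusted permutation p 0.0191 and 0.0456). Without the 2 farthest mice, its r with Mrc1 was 0.61. The r of Mpeg1 ran from 0.29 with Cd68, the lowest of all pairs, to 0.62 with C1qc. On the levels themselves, without D9 and D62, 38 pairs passed by r and 28 by rho.

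**Figure D5:**
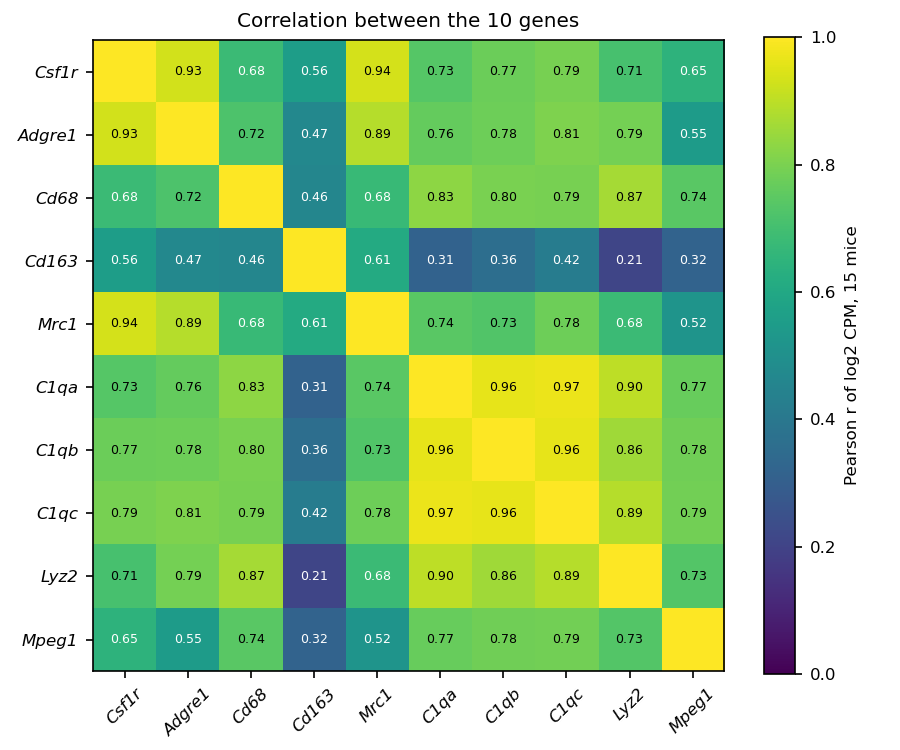
Pearson's r between each pair of the 10 genes over 15 mice, from log2 CPM. The 3 C1q genes form the block of highest values (0.96 to 0.97), and the row of Cd163 holds the lowest, from 0.21 to 0.61.

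The 10 genes outside every list whose level followed the members most closely over the 15 mice were named by a fixed measure, Pearson's r with the mean of the members' standardised levels, among 16757 genes. They were Nxpe5 (r = 0.91), Cd300c2 (0.88), Lgmn (0.87), Cfp (0.86), Clec4a3 (0.86), Ifi204 (0.86), Ms4a6c (0.85), Tmem106a (0.85), Gm21188 (0.84) and Tnfrsf11a (0.84). Lgmn encodes the lysosomal protease legumain, Cfp encodes properdin, which stabilises the alternative complement convertase, and Clec4a3 and Cd300c2 encode myeloid surface receptors. The genes were chosen for this likeness, so it was not tested.

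C1q acts at the head of the classical pathway, and the rest of that pathway was measured as well. Of 16 listed genes of the pathway and its inhibitors, 12 passed the count filter. Of these 12, 9 were higher in High Run than in High Control mice with a median log2 fold change of 0.23, and 7 were higher in Low Run than in Low Control mice with a median of 0.15. For this list and those below, 57.2% of all tested genes were higher after running in High and 51.9% in Low mice. edgeR and DESeq2 called 0 of the 12 in either comparison. At an unadjusted p under 0.05, edgeR had 1 higher in High and 0 in Low mice, against 3.28% and 5.92% of all genes. The 1 was C4b, which encodes the component that C1 cleaves, at 0.83 ± 0.33 in High mice (edgeR adjusted p 0.956). C4b reads can be confused with those of its copy C4a (0.91 ± 0.51). C3, the component on which the pathways meet, differed by 0.49 ± 0.37 in High mice, and Serping1, the gene of the C1 inhibitor, by 0.39 ± 0.22 in Low mice. The medians of this list were smaller than those of the 3 C1q genes, whose log2 fold changes were 0.75 to 0.87 in High and 0.46 to 0.63 in Low mice, and that difference was not tested.

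Of 10 complement receptor genes, 9 were higher after running in High mice (median 0.42) and 7 in Low mice (median 0.13), with 0 called by edgeR or DESeq2. At an unadjusted p under 0.05, edgeR had 2 higher in High and 3 in Low mice, against 3.28% and 5.92% of all genes. C3ar1, the receptor for the anaphylatoxin C3a, differed by 1.38 ± 0.41 in High mice, from 0.997 to 1.77 CPM in the 3 Control mice and 1.83 to 5.27 CPM in the 4 Run mice. In Low mice the receptor genes with the lowest p were those of the leukocyte integrins, Itgb2 (0.95 ± 0.36), Itgam (1.02 ± 0.41) and Itgax (1.57 ± 0.66), all with an edgeR adjusted p of 0.358.

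Among 6 tested genes of the CSF1 receptor and macrophage growth factors, 6 were higher after running in High and in Low mice, with medians of 0.26 and 0.19 and 0 called by edgeR or DESeq2. Csf2rb, the shared receptor chain for GM-CSF and related cytokines, differed by 1.09 ± 0.32 in High mice, and Csf1 itself by 0.24 ± 0.23. Il34 differed by 0.11 ± 0.18 in Low mice. Of 9 myeloid regulators, 6 were higher in High and 5 in Low mice (medians 0.15 and 0.12, 0 called). Spi1, which encodes PU.1, differed by 0.82 ± 0.38 in Low and 0.49 ± 0.42 in High mice, and Maf by 0.44 ± 0.26 in Low and -0.58 ± 0.28 in High mice.

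Other macrophage genes were counted in 3 lists. Of 18 general macrophage markers, 18 were higher after running in High mice (median 0.74) and 17 in Low mice (median 0.69). DESeq2 called 1 of them in High mice, Ctss, the gene of the lysosomal protease cathepsin S, against 0.0934% of the genes it adjusted. Ctss differed by 1.70 ± 0.33 (DESeq2 adjusted p 0.00654), and the study also names it among the genes called in High mice only. Of 15 tested markers of tissue-resident macrophages, 15 were higher in High (median 0.56) and 9 in Low mice (median 0.13), with 0 called by edgeR or DESeq2. Clec10a (0.76 ± 0.29), Lyve1 (0.56 ± 0.24) and Siglec1 (1.40 ± 0.61) had the lowest p in High mice (edgeR adjusted p 0.956). Of 13 tested markers of monocytes and recruited macrophages, 11 were higher in High (median 0.92) and 12 in Low mice (median 0.48). DESeq2 called 1 of these, Lgals3, the gene of galectin-3, in High mice (1.46 ± 0.32, adjusted p 0.0319), and Trem2 (1.74 ± 0.45) and Gpnmb (1.16 ± 0.35) followed. In Low mice Ly6c2, a marker of inflammatory monocytes, came first (1.99 ± 0.68, edgeR adjusted p 0.358).

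Markers of other cells were counted as well, and their part in the results was not tested. All 8 tested neutrophil markers were higher after running in both frailty groups, and their summed level was between 5.72 and 83.7 CPM in all mice but the Low Run mouse D68, at 499 CPM. The other Low Run mice lay within the Low Control range of 12.1 to 75.6 CPM. The median sum was 17.6 CPM in Low Run and 21.4 CPM in Low Control mice. Neutrophils also contain Lyz2, which stood at 98.9 CPM in D68, within the range of the other 3 Low Run mice. The ratio of Lyz2 to Csf1r counts in D68, at 6.23, was the highest of all 15 mice, against 3.13 to 4.62 in the other Low Run mice. Csf1r in D68 was the lowest of the Low Run mice, at 15.9 CPM against 22.5 to 24.1 CPM in the others. All 7 tested lymphocyte and NK markers were higher in both, at a sum of at most 2.43 CPM in Low Control and up to 31.5 CPM in Low Run mice, the highest being D61. Cd3e of T cells differed by 2.75 ± 0.71 in Low mice (edgeR adjusted p 0.358). D61 also had the highest Mpeg1 level of all mice, at 18.1 CPM. The 5 erythroid markers, which stand for blood in the tissue, were all lower after running in Low mice (median -1.19). In High mice they were all higher (median 2.20), with an edgeR unadjusted p under 0.05 in 5 of 5, against 3.28% of all genes. Their sum was 312 to 488 CPM in High Control and 385 to 3860 CPM in High Run mice. The erythroid sum was highest in D53, D11 and D62, whose mean rank over the 10 members was 11.7, 11.2 and 5.5 of 15. No marker of these 3 lists was at 0 counts in all mice of a Run group, and Mpo of neutrophils and Ncr1 of NK cells were at 0 in all High Control mice. Of the remaining lists, those higher after running in Low and High mice in turn were 4 and 5 of 6 dendritic cell markers, 1 and 5 of 5 mast cell markers, 1 and 5 of 6 endothelial markers, 6 and 4 of 7 fibroblast markers, 3 and 3 of 5 pericyte and smooth muscle markers and 0 and 5 of 5 Schwann cell markers. They were 0 and 0 of 5 adipocyte markers, 6 and 3 of 8 muscle fibre markers and 3 and 2 of 5 satellite cell markers, and edgeR and DESeq2 called 0 of all these in either comparison.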

How the data were processed

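Gastrocnemius polyA RNA of 15 mice was analyzed, with groups taken from the sample labels, which name no batch. Per the submitters' processing notes the authors used STAR 2.7.9a, Subread 2.0.3 and mm10, and the deposited count values are whole, unnormalized numbers of reads per Ensembl gene outside the mitochondrial genome. The authors also deposited a variance-stabilizing transformation of the counts by DESeq2 on a log2-like scale, used here for the principal components and for an alternative. Symbols and positions came from GENCODE M21 (55190 of 55450 genes have a symbol) and promoters from RefSeq (GRCm38.p6).

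Counts were filtered by filterByExpr, scaled by TMM and tested over all 16920 remaining genes by the quasi-likelihood test of edgeR 4.0.16 in R 4.3.3, with 1 mean per group and Benjamini-Hochberg adjustment, called at an FDR of 0.1. DESeq2 1.42.0 and limma 3.58.1 (voom with sample quality weights) served as alternatives, beside RLE and upper-quartile scaling, no filter, at least 10 counts in every mouse, only the groups compared, offsets for length and GC content (loess span 0.3), each mouse left out, and the mice apart on a principal component left out. Leaving out D53, D57 and D68 was chosen after seeing the data. Log2 CPM used a prior count of 0.5, and correlations were tested by 100000 permutations in Python 3.11.15 with SciPy 1.17.1. Figures were drawn with Matplotlib from the same values. The fits were tested on simulated data.

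All 10 members were named in every comparison, from other lists up to 4 genes per list and comparison (called, then lowest p), and the 10 genes most alike in pattern. The members, the 19 other lists and these rules were chosen with earlier results of these data known. At 55 to 3360 counts per member and mouse, the spread between mice limits the precision more than counting does.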

Additional observations from a re-analysis of the deposited data

Results flagged for a closer look

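Cd163 differed after running in opposite directions in the 2 frailty groups. All 4 Low Run mice lay below the Low Control mean and all 4 High Run mice above the High Control mean, and the interaction term was 1.11 on the log2 scale (SE 0.35), which edgeR did not call (adjusted p 0.600). The term ran from 0.85 to 1.34 with 1 mouse left out.

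Cd163 in the Low Control mouse D11 lay far from the other 3, at 24.8 CPM against 16.0 to 17.2 CPM, a gap of 0.858 of the range of the group. This was 1 of 30 combinations of a member and a group of 4 mice examined, and chance alone marks about 1 in 20.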

How the results depend on the processing

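Of the counts and medians of members, 171 stayed within 1.5 times or 1 SD of their value under the settings other than leaving out 1 mouse and 6 did not, against 267 and 3 with 1 mouse left out. The SD between mice within a group was 0.39 on the log2 scale, as a median over members. That is close to or above several of the medians, so a median could change sign and still count as stayed. These counts therefore do not show that the medians are stable. The number of members called in High mice, 0 by edgeR, was 1 with DESeq2, 1 with voom and 1 without a count filter, each time Mpeg1 (adjusted p 0.0320, 0.0626 and 0.0611). For running averaged over frailty it was 4 with DESeq2 and 3 without a count filter. The number of genes higher in High Run than in Low Run mice, 5, was 9 without D9 and D62 and ran from 2 to 9 with 1 mouse left out. DESeq2 called 10 genes in all in Low mice, 15 in High mice and 106 averaged over frailty, and voom called 0, 45 and 0, where edgeR called 0 (2274, 877 and 1461 at an unadjusted p under 0.05).

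Signs changed in these results, and the cause was not tested. In Low mice Mrc1 was -0.0040 with voom, and without D9 and D62 it was -0.11, Csf1r -0.0586 and Adgre1 -0.0023. With 1 mouse left out, the Low values ran from -0.11 to 0.34 for Mrc1, from -0.0589 to 0.20 for Csf1r and from -0.0020 to 0.41 for Adgre1, and the interaction terms from -0.0793 to 0.34 for C1qa and from -0.0090 to 0.68 for Mrc1. Averaged over frailty, Cd163 was 0.0065 with upper-quartile scaling, 0.00023 without D53, D57 and D68, and -0.17 to 0.0819 with 1 mouse left out. Between the run groups, the median of the members, 0.05, was -0.16 without D49, -0.0331 without D66 and -0.0422 without D68, against 0.22 without D62.

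The groups are of 3 or 4 mice. edgeR called 0 of the 16920 genes in all 6 comparisons at this size, so a difference that was not called is not shown to be absent. No paired analysis was possible because the mouse numbers are not shared between groups.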
